A study of Mus musculus with 8 samples.

Results

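The polyamine metabolism genes of soleus muscle were examined in control mice and in mice heterozygous for a point mutation of Dnm2, the gene of the membrane fission GTPase dynamin 2. The set comprised 9 genes, Odc1, Amd1, Amd2, Srm, Sms, Smox, Sat1, Oaz1 and Oaz2, chosen by symbol among the 22880 genes of the count tables, and each of the 9 was found. RNA was sequenced from whole soleus of 8 male C57BL/6 mice aged 2 months (substrain J in the study's methods), 4 control mice with 2 normal Dnm2 alleles (Dnm2 +/+) and 4 Dnm2 +/K562E mice. The mutation had been placed in the endogenous gene by homologous recombination in embryonic stem cells, which left a loxP site in an intron, so every cell of the body carried it.

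Polyamines are small positively charged molecules that bind nucleic acids and are needed for growth and translation. Ornithine decarboxylase makes putrescine, and 2 aminopropyl transferases lengthen it to spermidine and then spermine, using a donor that S-adenosylmethionine decarboxylase supplies. Spermine oxidase and an acetyltransferase run the pathway backwards, while antizymes bind ornithine decarboxylase, send it to the proteasome and restrain polyamine uptake. In skeletal muscle the first enzymes of the pathway are known to respond to androgens and growth stimuli.

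Total counts per mouse ranged from 33407430 to 48832814. The soleus label could not be checked with these values, since no other muscle was sequenced. Genes of slow fibres and of fibres in general, with the fast fibre myosin Myh2 among them, were summed. The sum was 60473 to 69557 normalized CPM in controls and 37997 to 43593 in mutants (CPM, reads of a gene relative to the TMM-scaled library). That sum does not show whether a sample held soleus alone, and control 4 had far more of the fast fibre myosin Myh4 than the other controls, as given with its values further on. Dnm2 itself stood at 66.3 ± 4.74 normalized CPM in controls and 73.4 ± 2.43 in mutants (SD, n = 4, edgeR adjusted p = 0.0909). It did not pass, though every mutant lay above every control. With library size as the only scaling it passed as higher (log2 fold change 0.36, edgeR adjusted p = 0.00271). Since both alleles are counted together, the level of Dnm2 did not check the genotype. Each mouse was a separate library, and pairs of libraries of the same group differed by 12.6 to 55.2 times counting noise (chi-square per degree of freedom). The p-values set the difference between the groups against the spread between these mice, which edgeR estimates with information shared across genes.

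Of the 9 polyamine genes, 4 were higher and 4 were lower in Dnm2 +/K562E soleus after Benjamini-Hochberg adjustment over 14001 tested genes at a threshold of 0.05 (quasi-likelihood test of edgeR), and 1 did not pass. Odc1 and Sat1 rose beyond a log2 fold change of 0.58, Srm and Sms rose by less, Amd1, Amd2 and Smox fell beyond that size, and Oaz1 fell by less. In the whole muscle transcriptome 43.8% of tested genes passed, 22.2% higher and 21.7% lower, and 12.9% and 7.85% also met the size limit in the higher and lower direction. The groups did not overlap for 3 members that were higher and 4 that were lower, against 20.6% and 20.5% of all tested genes. The median log2 fold change of the members was -0.10, beside 0.0074 over all tested genes. In whole muscle, fewer cells of a type cannot be told apart from less RNA per cell.

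**Figure D1:**
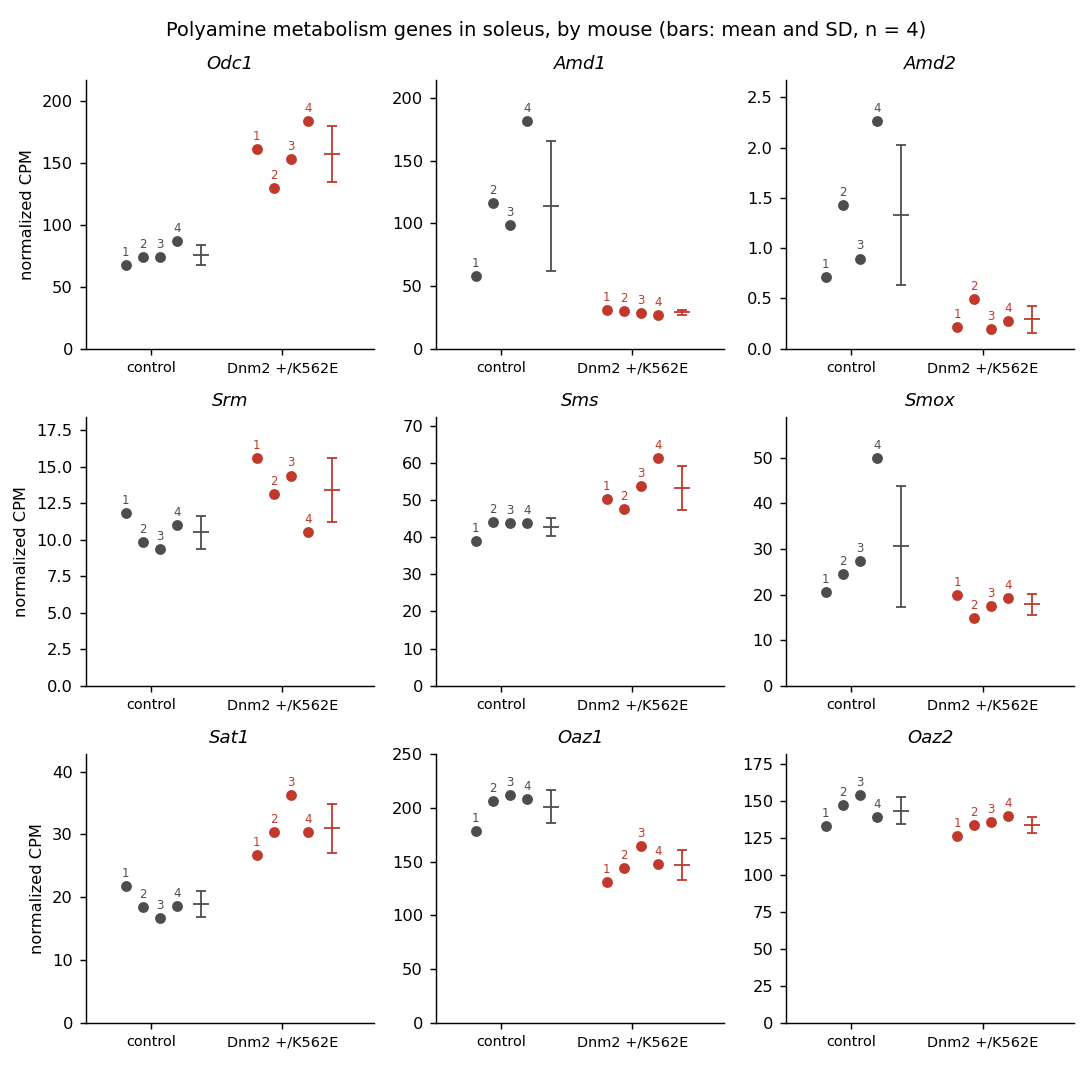
Normalized CPM of the 9 polyamine genes in each mouse (numbered points, vertical axes from 0) for control (grey) and Dnm2 +/K562E (red), with the mean and SD over 4 mice at the right of each group. Odc1, Sms and Sat1 were higher in every mutant than in any control, Amd1, Amd2, Smox and Oaz1 were lower in every mutant, and Srm and Oaz2 overlapped.

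Sequences of the members are given before the values in 2 cases where they bear on what a read count can say, the near-identical Amd copies and the antizymes. Stretches shared with other annotated genes also occur in other members. At 31 bases they made up 24.1% of Oaz1, 18.8% of Sms, 12.2% of Oaz2, 9.41% of Srm and 6.92% of Sat1. At 90 bases the shares were 15.4% for Oaz1, 16.6% for Sms, 2.40% for Oaz2, 0% for Srm and 0.446% for Sat1. Amd1 and Amd2 both encode S-adenosylmethionine decarboxylase and both lie on chromosome 10 of GRCm38, Amd1 with 8 exons at chr10:40287458-40302186 on the minus strand and Amd2 as a single exon at chr10:35708675-35711892 on the minus strand. Their main transcripts in GENCODE M21, of 3204 and 3218 bases, differed at 14 of 3204 aligned bases, which is 99.6% identity. The coding parts, 1005 bases each, differed at 1 base, written G796C from Amd1 to Amd2 with positions counted from 1 at the A of the start codon. Coding bases 766 to 825 are shown 5′ to 3′ with that base in capitals, because it is the only coding base by which a read can be told to come from one gene or the other. They lie at chr10:40290157-40290216 and chr10:35710735-35710794.
Amd1: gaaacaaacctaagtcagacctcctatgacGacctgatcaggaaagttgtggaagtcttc
Amd2: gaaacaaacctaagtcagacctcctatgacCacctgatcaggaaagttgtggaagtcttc
Of the 31-base stretches of the main Amd1 transcript, 91.3% also occur in Amd2, and of its 90-base stretches 75.6%. These are shares of stretches, not of reads. The study sequenced both ends of each fragment, in reads longer than 90 bases. What share of its read pairs fit both copies was not tested. Reads that fit both copies equally cannot be assigned to either with certainty. Per the study's methods the counting admitted multi-mapping reads, by their primary alignment alone, and required a mapping quality of at least 10. How many reads that fit both copies this limit left out was not tested. The counts of both genes are uncertain to that extent.

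Upstream of their transcripts the copies did not resemble each other. Over the 250 bases before the annotated start (RefSeq, GRCm38.p6), the best ungapped match was 67 identical of 246 bases, or 27.2%, whereas 48 of 48 bases compared after the start were identical. The last 60 bases before the start are shown 5′ to 3′ in lower case throughout, from chr10:40302189-40302248 and chr10:35711892-35711951 on the minus strand, to let the 2 upstream regions be compared by eye.
Amd1: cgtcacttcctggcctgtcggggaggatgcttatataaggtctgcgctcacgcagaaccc
Amd2: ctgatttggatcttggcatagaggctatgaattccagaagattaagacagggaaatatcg

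For the antizymes the limit lies in translation. Oaz1 and Oaz2 messages hold a short first reading frame, and the ribosome must slip by a base at its stop codon, which polyamines promote, to make the full antizyme. A count of antizyme mRNA therefore does not give the amount of antizyme. The windows around that stop codon, in capitals, are at chr10:80828271-80828318 for Oaz1 and chr9:65686248-65686295 for Oaz2, both on the plus strand of GRCm38, and are identical at 40 of 48 bases.
Oaz1: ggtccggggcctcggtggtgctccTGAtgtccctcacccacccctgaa
Oaz2: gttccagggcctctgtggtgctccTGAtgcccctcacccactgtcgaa

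Odc1 (ENSMUSG00000011179, chr12:17544794-17551505, plus strand), the gene of the enzyme that opens the pathway, was about doubled in the mutants. It measured 67.2, 74.1, 73.9 and 87.3 normalized CPM in controls 1 to 4 and 161, 130, 153 and 184 in mutants 1 to 4. The lowest mutant lay above the highest control. The means were 75.6 ± 8.44 and 157 ± 22.4 (SD, n = 4), a log2 fold change of 1.05 (SE 0.11, edgeR adjusted p = 2.80e-05). Odc1 passed in all 8 fits that left out a mouse, with log2 fold changes from 0.97 to 1.14. Of its 31-base stretches 31.3% also occur elsewhere in the annotated transcripts, in genes such as Gm7993 and Gm9115, and of its 90-base stretches 12.7%.

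Amd1 (ENSMUSG00000075232), whose product makes the aminopropyl donor for both transferases, showed the largest fall among the members with more than 100 reads in every mouse. It measured 58.1, 117, 98.8 and 182 normalized CPM in controls 1 to 4 and 30.7, 29.9, 28.2 and 26.5 in mutants 1 to 4. The controls were widely spread with control 4 the highest, whereas the mutants were tightly grouped and all lay below the lowest control. The means were 114 ± 51.6 and 28.8 ± 1.86 (SD, n = 4), a log2 fold change of -1.98 (SE 0.27, edgeR adjusted p = 0.000169). Without control 4 the log2 fold change was -1.67 (adjusted p = 7.75e-05).

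Amd2 (ENSMUSG00000063953), the single-exon copy, was counted at a small share of Amd1. Its raw counts were 24, 48, 40 and 77 in controls 1 to 4 and 8, 21, 8 and 10 in mutants 1 to 4. Every mutant was below every control, and control 4 was again the highest. The log2 fold change was -2.16 (SE 0.45, edgeR adjusted p = 0.00284). Amd2 reads per 100 Amd1 reads came to 1.23, 1.22, 0.907 and 1.25 in controls and 0.708, 1.63, 0.676 and 1.02 in mutants, so this share overlapped between the groups. Whether these reads arose from Amd2 or were Amd1 reads placed on the copy was not tested.

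The transferases moved little. Srm (ENSMUSG00000006442, chr4:148591503-148594993, plus strand), which makes spermidine, measured 11.9, 9.83, 9.38 and 11.0 normalized CPM in controls 1 to 4 and 15.6, 13.1, 14.4 and 10.5 in mutants 1 to 4. Mutant 4 lay within the controls and the other 3 mutants above them. The log2 fold change was 0.35 (SE 0.13, edgeR adjusted p = 0.0463), just inside the threshold. It no longer passed without control 2, 3 or 4 or without mutant 1, 2 or 3, where the adjusted p was 0.110, 0.116, 0.0624, 0.134, 0.0752 and 0.113, and it passed without control 1 or mutant 4.

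Sms (ENSMUSG00000071708, chrX:157443855-157492287, minus strand), which makes spermine, measured 39.1, 44.0, 43.9 and 43.8 normalized CPM in controls 1 to 4 and 50.3, 47.5, 53.9 and 61.4 in mutants 1 to 4. All mutants were above all controls by a narrow margin. The log2 fold change was 0.32 (SE 0.08, edgeR adjusted p = 0.0105), and it passed whichever mouse was left out.

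The genes of the return path moved in opposite directions. Sat1 (ENSMUSG00000025283, chrX:155213132-155216449, minus strand), the spermidine and spermine acetyltransferase whose products are exported or oxidized, measured 21.8, 18.4, 16.7 and 18.7 normalized CPM in controls 1 to 4. In mutants 1 to 4 it measured 26.8, 30.4, 36.3 and 30.3. The groups did not overlap, and the log2 fold change was 0.71 (SE 0.11, edgeR adjusted p = 0.000339).

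Smox (ENSMUSG00000027333, chr2:131491496-131525922, plus strand), which oxidizes spermine straight to spermidine, fell. Controls 1 to 4 measured 20.5, 24.5, 27.4 and 50.0 normalized CPM and mutants 1 to 4 measured 19.9, 14.9, 17.4 and 19.1. The lowest control stood barely above the highest mutant, and control 4 stood far above the other controls. The log2 fold change was -0.78 (SE 0.24, edgeR adjusted p = 0.0204). Without control 4 it was -0.45 (adjusted p = 0.0162), which is past the threshold but short of the size limit of 0.58. Without mutant 2 it did not pass (-0.70, adjusted p = 0.0571), nor with library size as the only scaling (-0.58, adjusted p = 0.0739).

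Of the antizymes, Oaz1 (ENSMUSG00000035242, chr10:80826656-80829290, plus strand) fell modestly. It measured 178, 207, 212 and 208 normalized CPM in controls 1 to 4 and 131, 144, 165 and 148 in mutants 1 to 4. No mutant reached the lowest control, and the log2 fold change was -0.45 (SE 0.08, edgeR adjusted p = 0.00114). Oaz2 (ENSMUSG00000040652, chr9:65668001-65690300, plus strand) measured 133, 147, 154 and 139 in controls 1 to 4 and 126, 134, 135 and 140 in mutants 1 to 4. Its groups overlapped, and its log2 fold change of -0.10 (SE 0.06, edgeR adjusted p = 0.214) became 0.11 with library size as the only scaling.

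**Figure D2:**
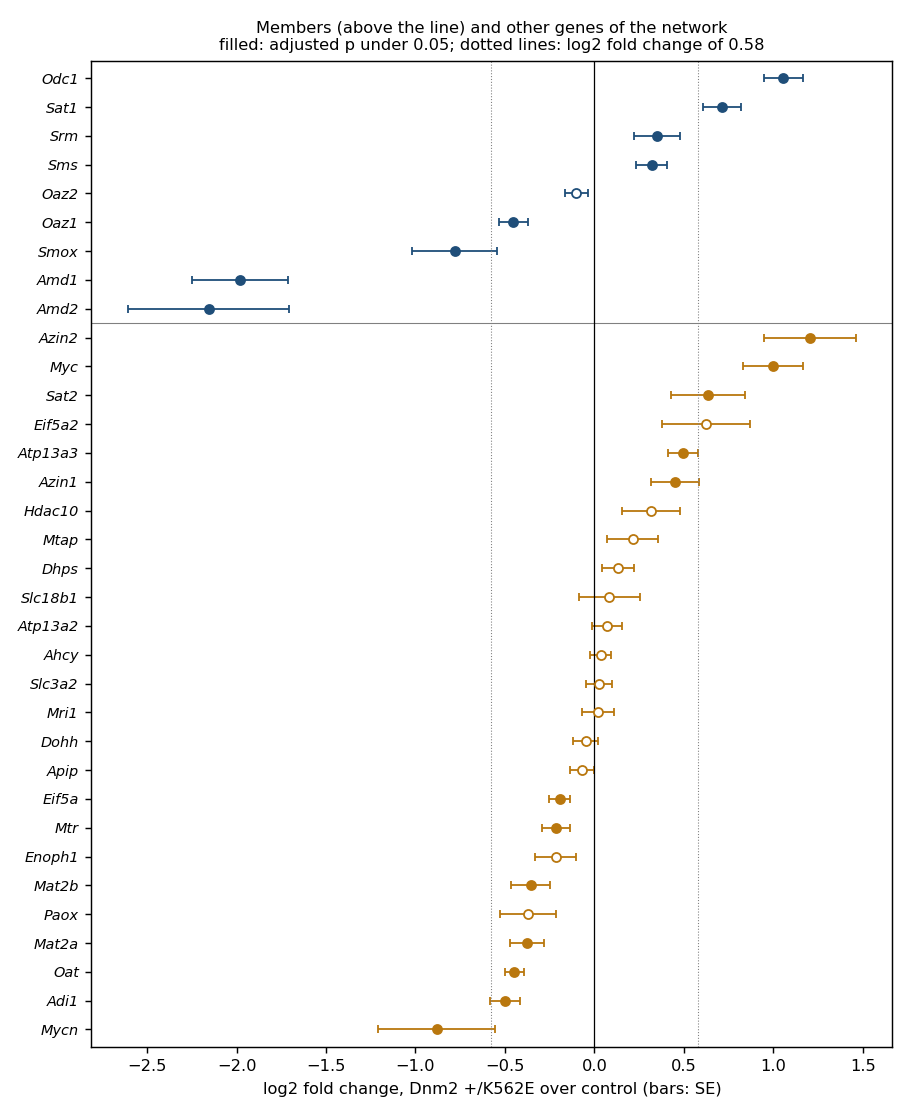
Log2 fold change of Dnm2 +/K562E over control with its SE for the 9 members (blue, above the line) and the 25 tested genes of the wider network (orange), filled where the edgeR adjusted p was under 0.05; the dotted lines mark 0.58 in each direction. The members run from 1.05 for Odc1 to -2.16 for Amd2, and the network genes from 1.20 for Azin2 to -0.88 for Mycn.

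Levels were compared between genes as normalized CPM per kb of merged exon. In controls Oaz1 was the highest at 78.7 ± 6.07 and lay clear of Oaz2 at 47.9 ± 3.03 (SD, n = 4). Amd1 at 32.1 ± 14.6 overlapped both Oaz2 above it and Odc1 below it at 22.2 ± 2.48. A step down followed to Smox, Sms, Sat1 and Srm, with means of 7.86, 7.10, 6.82 and 6.58 and overlapping ranges, and Amd2 was last at 0.412 ± 0.216. In the mutants Odc1 stood at 46.1 ± 6.59, overlapping Oaz1 at 57.5 ± 5.50 and Oaz2 at 44.7 ± 1.88. Sat1 came next at 11.2 ± 1.42, and Sms, Srm and Amd1 followed with overlapping ranges and means of 8.87, 8.39 and 8.14. Smox at 4.58 ± 0.58 and Amd2 at 0.0906 ± 0.0420 were below all of them. The decarboxylase that makes the donor thus went from the same range as Odc1 to below it in every mutant. Of 90-base stretches, 69.1% of Amd1 and 12.7% of Odc1 also occur in other genes. What this did to the level of Amd1 beside Odc1 was not tested. With the length of the longest transcript in place of merged exons, Oaz2 stood above Oaz1 in the mutants (72.5 against 58.2). In controls the antizymes then overlapped, at 70.6 to 84.0 for Oaz1 and 72.3 to 83.5 for Oaz2. With the longest coding transcript, Odc1 in the mutants (58.8 to 83.4) lay below Oaz1 (122 to 154). Several places in the order thus depended on the length used, among them those of the antizymes and of Odc1 beside Oaz1.

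Ratios between genes within a mouse do not depend on the scaling of its library. Odc1 to Oaz1, the enzyme over its best known inhibitor, was 0.283, 0.269, 0.262 and 0.315 per unit length in controls 1 to 4 and 0.926, 0.679, 0.696 and 0.934 in mutants 1 to 4. The mutant mean of 0.809 ± 0.140 was 2.86 times the control mean of 0.282 ± 0.0235 (SD, n = 4), with no overlap. Smox to Sat1, the 2 return routes, was 0.668, 0.946, 1.17 and 1.91 in controls and 0.530, 0.348, 0.341 and 0.450 in mutants, again with no overlap. Without control 4 the control mean of this ratio was 0.928, beside 1.17 with it and 0.417 in the mutants.

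The other ratios overlapped. Srm to Sms was 0.933 ± 0.152 in controls and 0.963 ± 0.224 in mutants (SD, n = 4), and Odc1 to Sat1 was 3.30 ± 0.57 and 4.19 ± 0.85. The forward and the acetylation entry genes, Odc1 and Sat1, had both risen. Their ratio was 2.51, 3.27, 3.60 and 3.81 in controls 1 to 4 and 4.91, 3.48, 3.43 and 4.95 in mutants 1 to 4. Mutants 1 and 4 lay above every control and mutants 2 and 3 within the controls. Whether this ratio differed between the groups was not tested.

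**Figure D3:**
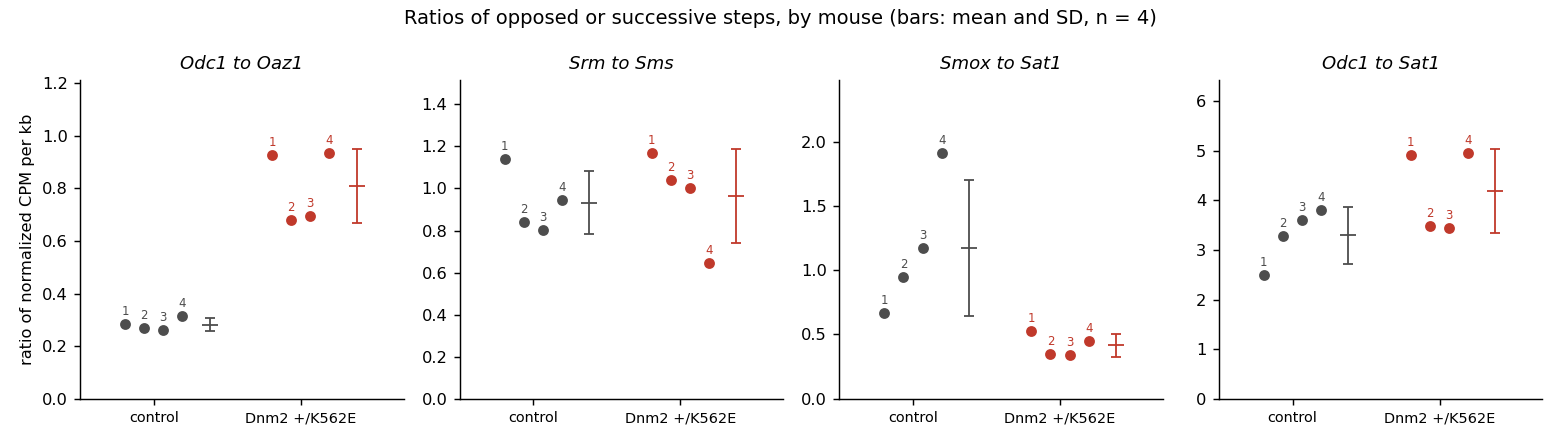
Ratios of normalized CPM per kb of merged exon between pairs of polyamine genes in each mouse (numbered points), with the mean and SD over 4 mice; the vertical axes start at 0. The Odc1 to Oaz1 ratio is 0.262 to 0.315 in controls and 0.679 to 0.934 in mutants, while Srm to Sms and Odc1 to Sat1 overlap.

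A wider list of 30 genes around the pathway was examined in the same fit, of which 25 had enough reads to be tested. Of these, 5 rose, 7 fell and 13 did not pass, shares near the 22.2% higher and 21.7% lower over all tested genes, and their median log2 fold change was 0.026. The split depended on scaling: with library size alone, which moved the median of all tested genes from 0.0074 to 0.22, 13 rose and 2 fell. Of all 14001 tested genes 5608 were then higher and 1504 lower.

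The antizyme inhibitors, proteins that resemble ornithine decarboxylase and draw antizyme away from it, both rose. Azin2 went from 1.45 ± 0.50 to 3.34 ± 0.59 normalized CPM (SD, n = 4) with no overlap. Its log2 fold change was 1.20 (SE 0.26, edgeR adjusted p = 0.00330). Azin1 measured 49.4, 64.0, 58.3 and 74.3 in controls 1 to 4 and 75.8, 70.9, 102 and 88.0 in mutants 1 to 4. Mutant 2 lay below control 4, and the log2 fold change was 0.45 (SE 0.14, edgeR adjusted p = 0.0196). It did not pass without control 3 (adjusted p = 0.0527) or mutant 3 (0.0605). Oaz3, the antizyme of the testis, was not tested, with 0 reads in 7 mice and 8 in mutant 4.

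Around the supply of substrates, Oat, which interconverts ornithine and glutamate semialdehyde, fell from 137 ± 2.39 to 100.4 ± 4.16 normalized CPM (SD, n = 4; log2 fold change -0.45, edgeR adjusted p = 7.12e-05). The arginases Arg1 and Arg2 and the agmatinase gene Agmat had at most 5 reads in any mouse and were not tested. In the methionine cycle and salvage path, which feed and clear the aminopropyl donor, 4 of 9 tested genes fell and none rose at an adjusted p under 0.05, beside 21.7% lower and 22.2% higher over all tested genes. With library size as the only scaling the balance turned, with Adi1 lower (-0.29, adjusted p = 0.0168) and Ahcy (0.25, 0.00878), Mtap (0.42, 0.0356) and Mri1 (0.23, 0.0412) higher. The balance of all tested genes shifted too, with 5608 of 14001 higher and 1504 lower under that scaling. Mat2a, the catalytic subunit of methionine adenosyltransferase, changed by -0.38 on the log2 scale (SE 0.09, adjusted p = 0.00765) and its regulatory subunit gene Mat2b by -0.36 (SE 0.11, adjusted p = 0.0207). The salvage dioxygenase gene Adi1 changed by -0.50 (SE 0.08, adjusted p = 0.000708). Mtr, methionine synthase, was at the threshold (-0.22, adjusted p = 0.0462) and passed in 1 of the 8 fits that left out a mouse. Mat2b did not pass without mutant 1 (adjusted p = 0.0557) or mutant 3 (0.0563).

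Of the other breakdown genes, Sat2 rose (log2 fold change 0.63, SE 0.21, edgeR adjusted p = 0.0281) but passed in only 2 of 8 fits that left out a mouse. Paox, the oxidase of acetylated polyamines, stood at -0.37 (adjusted p = 0.0796), and Hdac10, a polyamine deacetylase, at 0.32 (adjusted p = 0.138). Among transporters Atp13a3, a P5B ATPase linked to polyamine uptake, rose from 63.3 ± 4.97 to 89.3 ± 8.42 normalized CPM (SD, n = 4; log2 fold change 0.50, adjusted p = 0.000693), and Atp13a2, Slc18b1 and Slc3a2 did not pass, at 0.07, 0.08 and 0.03.

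Spermidine is the source of hypusine, the modified residue of translation factor eIF5A. Eif5a changed by -0.20 on the log2 scale (SE 0.06, edgeR adjusted p = 0.0210), a call lost without control 2, control 3 or mutant 2 and whose sign turned with library size as the only scaling (0.016). Eif5a2, Dhps and Dohh did not pass, with log2 fold changes of 0.62 (adjusted p = 0.0605), 0.13 and -0.05. Eif5a2 passed as higher with the edgeR exact test (adjusted p = 0.0390), with DESeq2 (0.0331), with library size alone (0.0181), and without control 1 (0.00803) or mutant 4 (0.0372). Of the regulators, Myc, whose protein is known to activate Odc1 through the letters CACGTG, rose from 4.47 ± 1.14 to 8.94 ± 0.67 normalized CPM (SD, n = 4; log2 fold change 1.00, SE 0.17, adjusted p = 0.000731). Mycn was low, at 22 to 64 reads, and its change of -0.88 on the log2 scale (adjusted p = 0.0483) passed in 1 of 8 fits without a mouse. CACGTG, which is its own reverse complement, was found in 1 of 9 promoter windows of the 8 members that matched the RefSeq table, an Sms window, and in 7.15% of all 32851 windows of 250 bases before to 50 after a start. It was not in the Odc1 window, which says only that these letters are not there. The rest of the Odc1 gene was not searched for them.

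Markers of other cell types moved with the genotype and stand beside every result above. All 7 macrophage markers and all 6 fibroblast markers rose, with summed levels of 72.8 to 135 normalized CPM in controls against 179 to 296 in mutants for macrophages, and 2366 to 3667 against 5209 to 6837 for fibroblasts. All 5 endothelial markers fell (summed levels 862 to 900 against 616 to 705), as did 9 of 10 myofibre genes. Of 6 genes of dividing cells 1 rose, with sums of 11.2 to 17.7 against 16.0 to 28.5. Of 5 Schwann cell markers 1 fell (158 to 178 against 132 to 165) and none of 4 adipocyte markers passed (29.3 to 164 against 50.0 to 96.3). No marker on these lists was at 0 in every mouse, and the part of these cells in the polyamine results was not tested.

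Fast fibre genes were examined because control 4 stood high in Amd1 and Smox. Of 8 fast fibre genes 6 fell, with summed levels of 32424 to 35028 normalized CPM in controls and 19543 to 23508 in mutants. Myh4, the myosin of the fastest fibres and the gene with the lowest log2 fold change on the list (-4.63, edgeR adjusted p = 0.00119), measured 426, 372, 163 and 3134 in controls 1 to 4 and 34.9, 34.0, 45.9 and 50.9 in mutants 1 to 4. Pvalb, chosen after its values were seen, measured 342, 407, 469 and 946 in controls and 23.5, 76.9, 68.9 and 44.0 in mutants. Control 4 led the controls in both, as it did in Amd1, Amd2, Smox and Odc1. Over the 8 fast fibre genes control 4 was the highest control in 3 and the lowest in 3. Control 1 was the lowest control in Amd1, Smox and Pvalb, and control 3 in Myh4. Control 4 was also the highest control in the macrophage (135), fibroblast (3667), adipocyte (164), dividing cell (17.7) and fast fibre (35028) sums. It was not the highest in the myofibre, endothelial or Schwann cell sums. Amd1 passed without control 4, as given above, and the part of fibre type in Amd1 and Smox was not tested.

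**Figure D4:**
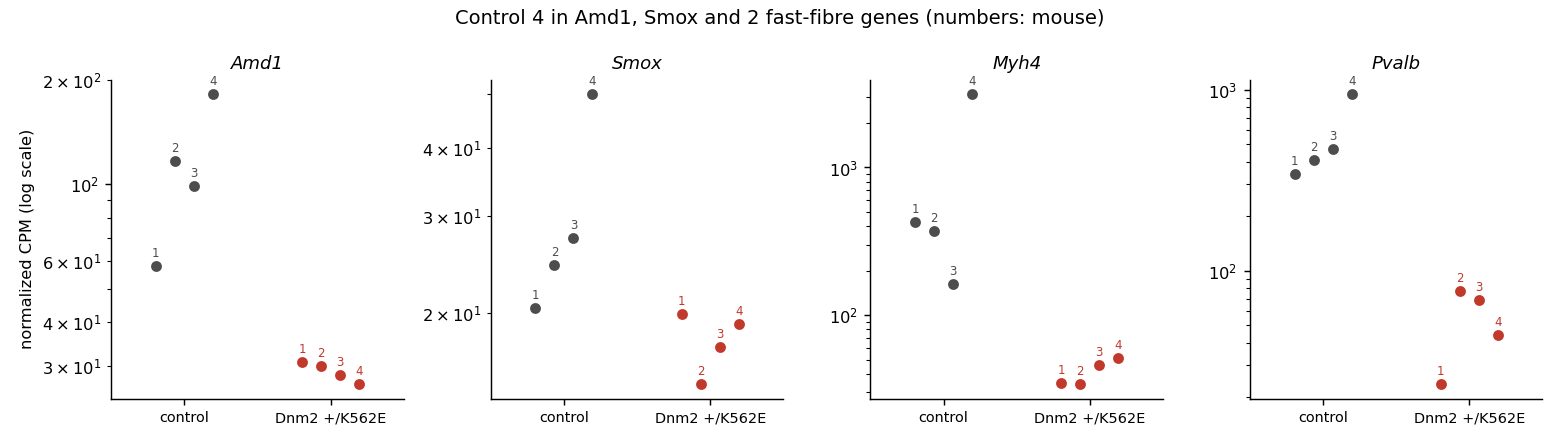
Normalized CPM (log axes, numbered points are mice) of Amd1, Smox, Myh4 and Pvalb in control (grey) and Dnm2 +/K562E (red) soleus. Control 4 is the highest mouse in all 4 panels, at 182, 50.0, 3134 and 946, and the mutants are below every control in each.

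The genes whose pattern over the 8 mice was most like that of Odc1 and of Amd1, the members with the smallest p in each direction, were found by the root mean square difference of log2 CPM after subtracting each gene's own mean. For Odc1 they were Mllt11 at 0.0817, Popdc3 at 0.0949 and Zfp697 at 0.101. Popdc3, a membrane protein gene of striated muscle, measured 34.3, 42.9, 39.4 and 45.0 normalized CPM in controls and 79.2, 71.5, 81.1 and 84.7 in mutants. For Amd1 they were the amino acid transporter gene Slc38a4 at 0.238, Cib2 at 0.254 and the phospholipase gene Plcd4 at 0.265. Slc38a4 measured 34.8, 51.7, 50.4 and 68.4 in controls 1 to 4 and 11.5, 10.9, 12.3 and 9.95 in mutants 1 to 4. Controls 1 and 4 were its lowest and highest controls, as in Amd1, but the gene was picked for its likeness to Amd1 over these same mice. These distances are larger for Amd1 than for Odc1, so its nearest neighbours were less close.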

How the data were processed

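Whole soleus RNA of 4 control and 4 Dnm2 +/K562E mice was sequenced, with 33407430 to 48832814 counts a mouse. Per the study's methods the authors trimmed reads with Trimmomatic 0.33, aligned them with STAR 2.5.1b to GRCm38.p5 and deposited raw counts per gene from featureCounts. A mapping quality of at least 10 was required, and a read was counted for every gene it overlapped. Multi-mapping reads were admitted by their primary alignment alone. The strand setting is not given in the sources used here, and the kit is named differently in the labels and the methods, so antisense reads cannot be told apart. The counts were used as deposited. No row lacked a gene, and 22647 of 22880 IDs matched GENCODE M21. Counts were fitted in R 4.3.3 with edgeR 4.0.16 (TMM, filterByExpr with a minimum count of 10, glmQLFit, glmQLFTest) on 14001 genes, with Benjamini-Hochberg adjustment over all of them and a threshold of 0.05. The step was tested on simulated data. Alternatives were the edgeR exact test, DESeq2 1.42.0, other scalings and filters, a replicate block and leaving out each mouse. Members, lists and the rule for named genes (all members, the listed network genes, Dnm2, the extremes of marker lists and the 3 genes nearest to 2 members) were chosen with earlier results of these data known. Protein sequences were not used here.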

Additional observations from a re-analysis of the deposited data

Results flagged for a closer look

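Of 80 sets of 4 values examined, 7 held 1 mouse whose gap to its nearest neighbour was beyond Dixon's 95% limit, and chance flags about 1 in 20 such sets. Among members, control 1 stood below the other controls in Sms (39.1 normalized CPM) and in Oaz1 (178.2). Control 1 also stood below the others in Eif5a, at 257.0. Mutant 4 stood above the other mutants in Dohh (44.1) and mutant 3 above them in Enoph1 (6.51). Control 3 stood below the other controls in Dnm2 (59.2) and above them in total count (48832814). The fold changes of Sms and Oaz1 passed without control 1. Control 4 did not meet this limit for Amd1, Amd2 or Smox.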

How the results depend on the processing

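Odc1, Amd1, Sms, Sat1 and Oaz1 kept their direction and their side of the threshold under every alternative run, and so did Amd2 in those that tested it. At least 10 counts in every mouse left Amd2 untested, so 3 members fell there, 2 of them past the size limit. Replicate numbers did not pair the mice (mean correlation of same-numbered mice -0.114 by title and -0.0302 by description). With the replicate block by title number 3 members rose and 4 fell, Srm was lost under either pairing (0.34, adjusted p = 0.0711 by title and 0.0863 by description), and 3 other network genes fell instead of 7, while Eif5a2 passed as higher in the block by description (adjusted p = 0.0290). With library size as the only scaling 5608 of all tested genes were higher and 1504 lower, beside 3103 and 3036, and 2865 and 564 with the size limit. Then 13 network genes rose and 2 fell, Smox was -0.58, and Oaz2 (0.11), Eif5a (0.016), Dohh (0.16) and Apip (0.14) turned sign. Dnm2 passed as higher under that scaling (0.36, edgeR adjusted p = 0.00271). Leaving out each mouse gave 3 to 6 network genes that rose and 4 to 5 that fell, beside 2651 to 3225 and 2629 to 3172 of all tested genes. Srm then ran from 0.27 to 0.45 and Smox from -0.94 to -0.45. Sign also turned, among genes that did not pass, for Atp13a2 (-5.3e-05 to 0.12), Slc18b1 (-0.015 to 0.18), Slc3a2 (-0.012 to 0.064) and Mri1 (-0.026 to 0.064). With the longest transcript as length the mean Odc1 to Oaz1 ratio was 0.430 in controls and 1.23 in mutants, Srm to Sms 0.689 and 0.712, and Odc1 to Sat1 2.48 and 3.15. With the longest coding transcript, added after the data were seen, Odc1 to Oaz1 was 0.182 and 0.522, Srm to Sms 0.689 and 0.712, Odc1 to Sat1 2.13 and 2.71, and Smox to Sat1 0.296 in mutants. The folds between groups are the same under every length. Apart from these settings the cause of a change was not tested. Counts of Amd2 (8 to 77 reads) and Mycn (22 to 64 reads) limit both genes.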
